A study of Mus musculus with 8 samples.

Results

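The 10 genes described here encode ion channels and exchangers of the intestinal epithelium. They are Cftr, Slc12a2, Kcnq1, Kcne3, Kcnn4, Slc26a3, Slc26a6, Slc9a3, Slc4a4 and Scn2b, taken as a named list of salt and fluid transport genes plus the sodium channel subunit Scn2b, and all 10 were found among the 54532 genes of the count table. Their level was compared between 4 libraries of control mouse intestinal organoids and 4 libraries of organoids treated with RANKL, the ligand of the TNF family receptor RANK. Organoids are cultures of epithelium grown from isolated crypts, and the study's methods describe culture of crypts with EGF, NOGGIN, R-spondin and a ROCK inhibitor, without saying what the sequenced groups received beside RANKL. The labels give the treatment of each library but neither the dose or duration of RANKL nor the sex, age or strain of the mice, and the methods state a C57BL/6J background for all mouse lines of the study. Nothing in the labels says whether the 4 libraries of a group came from separate cultures or animals, so the p-values measure the spread between these libraries, which may be technical.

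Salt and water cross the intestinal epithelium in both directions. In secretion, the cotransporter NKCC1 (Slc12a2) loads chloride into the cell from the basolateral side, potassium channels (Kcnq1 with its subunit Kcne3, and Kcnn4) let potassium back out and hold the membrane voltage, and the channel CFTR lets chloride and bicarbonate out into the lumen. In absorption, the sodium-proton exchanger NHE3 (Slc9a3) and the chloride-bicarbonate exchangers DRA (Slc26a3) and PAT1 (Slc26a6) work side by side in the apical membrane. The sodium-bicarbonate cotransporter NBCe1 (Slc4a4) carries bicarbonate across the basolateral membrane. Scn2b encodes the β2 subunit of voltage-gated sodium channels, a protein with a single membrane span and an immunoglobulin-like outer domain that is best known from excitable cells.

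The measurement was 3′ mRNA sequencing (QuantSeq), in which reads come from the ends of polyadenylated transcripts, so a gene's count follows transcript number and not transcript length. Library totals ran from 583663 to 7807298 counts in control and from 613135 to 1923354 in RANKL-treated organoids, and the shallowest library of each group was control replicate 4 and RANKL replicate 1. Levels are given as CPM, the share of a library's counts on a fixed scale, after scaling library totals by TMM factors, and a count of 3, taken as the detection floor, was worth between 0.384 and 5.14 CPM depending on the library. Epithelial markers ran from 5482 to 6374 CPM in sum in control and from 5559 to 6020 CPM in RANKL libraries, with 0 of their 7 genes at 0. Cdh1 (mean 3479 CPM over the 8 libraries) and Epcam (1071 CPM) made up most of these sums. Of the 7 genes 1, Krt18, passed the test described below and was lower after RANKL (log2 fold change -0.70). Each of the 10 channel and exchanger genes was counted in every library, with between 7 counts (Slc9a3) and 5309 counts (Slc12a2), and all 10 passed edgeR's filter on low counts.

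RANKL-treated organoids differed from control in 6 of the 10 genes at an adjusted p of 0.05 (edgeR's quasi-likelihood test, Benjamini-Hochberg adjustment over 9971 genes). Among all genes tested, 25.9% passed, 13.6% with higher and 12.4% with lower levels after RANKL. Scn2b, Kcnq1 and Cftr were higher, and Slc26a3, Kcnn4 and Slc26a6 were lower. Slc12a2, Slc9a3, Slc4a4 and Kcne3 did not pass. In 6 of the 10 the 4 control and 4 RANKL values did not overlap, with 2 higher (Scn2b and Kcnq1) and 4 lower (Slc26a3, Slc26a6, Kcnn4 and Slc12a2), against 24.6% of all genes tested. With library totals alone Slc12a2 overlapped and 5 remained. The median log2 fold change of the 10 genes was -0.25, and that of all tested genes was 0.00017. Their summed level ran from 1624 to 1864 CPM in control and from 1518 to 1643 CPM after RANKL, ranges that overlap.

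**Figure D1:**
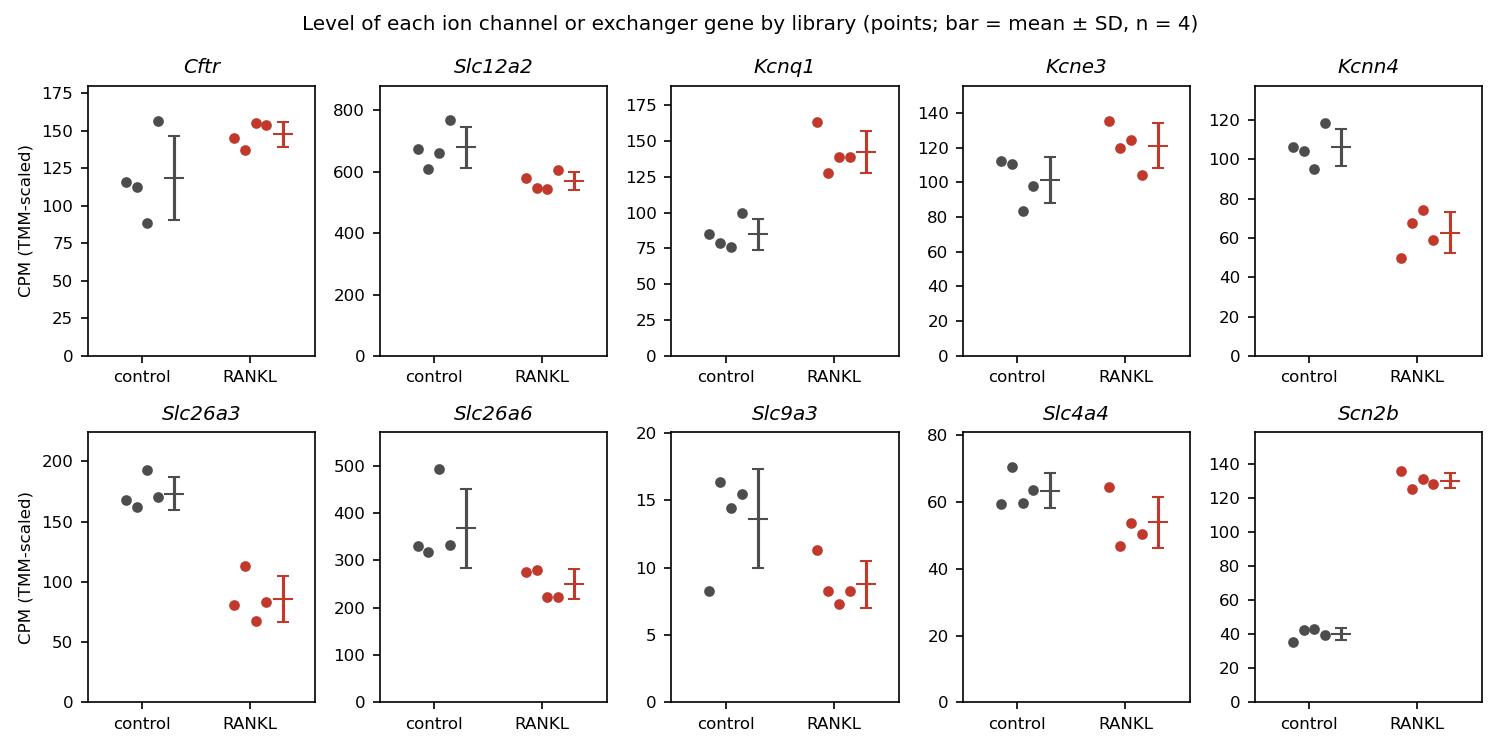
Level of each gene in each library as TMM-scaled CPM on a linear axis from 0, with points for the 4 control (grey) and 4 RANKL (red) libraries and a bar for the mean and SD. Scn2b stands apart most clearly, at 35.6 to 43.1 CPM in control and 125 to 136 CPM after RANKL, while the Cftr points overlap because control replicate 4, at 156 CPM, lies at the level of the RANKL libraries.

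In bulk RNA, fewer cells of a type and less RNA per cell cannot be told apart. M cell markers moved with the treatment: 5 of 6 passed the test and were higher, Gp2 was at 0 in all 8 libraries, and their sum went from 43.0 to 46.4 CPM in control to 1726 to 1983 CPM after RANKL. The part of M cells in the values of the channel and exchanger genes was not tested. Of 6 crypt base stem cell markers 2 were higher and 3 lower, with sums of 1787 to 2189 CPM and 1872 to 2168 CPM. Olfm4 (mean 1094 CPM over the 8 libraries) and Sox9 (743 CPM) made up most of these sums. Lgr5 fell by 2.22, Axin2 by 0.90 and Smoc2 by 0.76 on the log2 scale, while Ascl2 rose by 1.10 and Sox9 by 0.63. Of 10 enterocyte markers 1 was higher and 1 lower, with sums of 4189 to 4465 CPM and 4110 to 4579 CPM, and of 5 markers of dividing cells 2 were lower, with sums of 1377 to 1543 CPM and 1202 to 1317 CPM. For goblet cells 1 of 5 markers was lower, for Paneth cells 1 of 6 was lower and for enteroendocrine cells 2 of 7 were higher. Their part in the results was not tested. The remaining marker lists were low. The 8 markers of neurons and glia summed to at most 22.0 CPM, the 6 of mesenchyme to at most 32.7 CPM, the 6 of tuft cells to at most 19.4 CPM and the 5 of immune cells to at most 9.91 CPM in any library, and Uchl1, Dcn, Il25 and Cd3e were at 0 throughout.

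The promoters of Scn2b, Slc26a3 and Cftr are shown because these are the gene with the largest rise, the gene with the largest fall and the chloride channel to which the other secretion genes are coupled. Each line gives sequence before the RefSeq transcription start (GRCm38.p6, plus strand), at chr9:45117626-45117781 for Scn2b, chr12:31437969-31438216 for Slc26a3 and chr6:18170437-18170686 for Cftr. Of the 250 bases before each start, the last 94 for Scn2b and the last 2 for Slc26a3 lie in an exon of the same gene in GENCODE M21 and are not shown. RefSeq starts for 8 of the 10 genes were listed, with no entry for Kcnq1 and Slc12a2, and the Slc26a3 start lies inside the longer gene span of GENCODE M21. The shares below are over the full 250 bases. Capitals mark the core motif of CDX factors, TTTATG, in Scn2b, the core motif of ETS factors, GGAAGT, with the motif of the basal promoter box, TATAAA, in Slc26a3, and the motif of the GC box, GGGCGG, in Cftr.
Scn2b: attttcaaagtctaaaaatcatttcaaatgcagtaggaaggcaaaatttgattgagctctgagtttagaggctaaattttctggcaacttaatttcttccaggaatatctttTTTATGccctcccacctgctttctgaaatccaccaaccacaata
Slc26a3: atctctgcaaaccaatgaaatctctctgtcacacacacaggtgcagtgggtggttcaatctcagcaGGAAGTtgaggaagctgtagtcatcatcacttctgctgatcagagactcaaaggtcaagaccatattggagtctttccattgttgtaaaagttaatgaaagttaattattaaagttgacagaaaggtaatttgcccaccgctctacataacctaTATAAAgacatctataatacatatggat
Cftr: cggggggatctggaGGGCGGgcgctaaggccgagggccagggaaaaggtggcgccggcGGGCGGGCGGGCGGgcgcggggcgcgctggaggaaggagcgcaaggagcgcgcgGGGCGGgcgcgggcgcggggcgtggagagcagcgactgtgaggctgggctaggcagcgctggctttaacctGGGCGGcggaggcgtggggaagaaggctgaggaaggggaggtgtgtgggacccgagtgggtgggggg

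The Scn2b and Slc26a3 promoters were poor in G and C, at 38.4% and 38.8%, against a median of 52.4% over 32851 listed promoters and 76.4% for Cftr. Searched on both strands, GGGCGG was present in 32.7% of all promoters and in those of Cftr, Kcne3, Kcnn4, Slc26a6, Slc4a4 and Slc9a3. TTTATG was present in 10.8% of all promoters and, among these genes, in Scn2b, and TATAAA in 12.4% of all and in Slc26a3, where it lay 30 to 25 bases before the start. GGAAGT, the binding core of ETS factors, was present in 19.7% of all and in Kcne3, Slc26a3 and Slc4a4, and CAGAC, a Smad core, in 42.2% of all and in Kcne3, Kcnn4 and Slc26a6. The κB consensus was present in 3.9% of all promoters and in 0 of the 8 genes listed. The windows that hold the Slc26a6 and Slc4a4 matches begin inside an exon of the same gene in GENCODE M21. For the 8 genes 10 starts were listed, because Kcne3 and Slc4a4 each have a further start, and a match at either start was counted. A match describes the letters of this window and says nothing about binding.

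Among the secretion genes, the potassium channel Kcnq1 rose, the chloride channel Cftr rose to a smaller degree, and the potassium channel Kcnn4 fell. Kcnq1 (chromosome 7, 143106362 to 143427042), which forms the pore of the cAMP-regulated basolateral potassium channel, was at 84.9, 78.9, 75.8 and 99.7 CPM in the control libraries and at 163, 128, 139 and 139 CPM in the RANKL libraries. All RANKL values lay above all control values. The change was 1.70-fold, or 0.77 on the log2 scale (standard error 0.12, 95% interval 0.53 to 1.00, adjusted p = 6.2e-06), and the exact two-sided permutation test over the 8 libraries gave p = 0.0286, the smallest its 70 assignments allow. Kcnq1 was past the threshold with each library left out in turn (0.71 to 0.81).

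A long noncoding RNA, Kcnq1ot1, is transcribed from the opposite strand within Kcnq1. It was at 41.0, 45.1, 60.6 and 61.9 CPM in control and 24.2, 31.0, 24.0 and 18.1 CPM after RANKL. The antisense transcript fell by 1.05 on the log2 scale (standard error 0.18, adjusted p = 5.2e-05) while Kcnq1 rose, and its groups did not overlap. The counting was strand-specific per the methods, so reads of Kcnq1 and Kcnq1ot1 were assigned to separate genes. Opposite-strand genes also overlap Cftr (Gm15592, at 0 in all libraries) and Kcne3 (Gm34821, with 3 counts over the 4 libraries of each group).

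Kcne3 (chromosome 7, 100176502 to 100184869), the small subunit that keeps the Kcnq1 channel open, was at 112, 111, 83.6 and 98.0 CPM in control and at 136, 119.8, 124 and 104 CPM after RANKL. Control replicates 1 and 2 lay above the lowest RANKL library, and the groups overlapped. The log2 fold change was 0.23 (95% interval -0.02 to 0.48, adjusted p = 0.17), with an interval that reached from 0.988-fold to 1.39-fold.

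Because Kcne3 and Kcnq1 form one channel, their ratio was taken within each library. The ratio of Kcne3 to Kcnq1 was 1.32, 1.40, 1.10 and 0.983 in control and 0.832, 0.935, 0.895 and 0.751 after RANKL. Every RANKL library had less Kcne3 per Kcnq1 than every control library. The gap was narrow, between control replicate 4 (0.983) and RANKL replicate 2 (0.935). That control value came from 57 Kcne3 and 58 Kcnq1 counts in a shallow library. On the log2 scale the mean went from 0.25 ± 0.24 to -0.23 ± 0.14 (SD, n = 4 each), a difference of -0.49 (exact two-sided permutation p = 0.0286, 0.0429 after Benjamini-Hochberg adjustment over the 3 ratios compared).

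Cftr (chromosome 6, 18170687 to 18322768), the apical anion channel, was at 116, 112, 88.7 and 156 CPM in control and at 145, 137, 155 and 154 CPM after RANKL. The RANKL libraries sat close together (coefficient of variation 5.66%), the control libraries were spread widely (23.8%), and control replicate 4 lay at the level of the RANKL libraries. The log2 fold change was 0.39 (standard error 0.13, 95% interval 0.13 to 0.65, adjusted p = 0.021), or 1.31-fold, whereas the exact permutation test gave p = 0.143. The call was lost without control replicate 3 (0.29), RANKL replicate 3 (0.36) or RANKL replicate 4 (0.37), and with log2 library size as covariate (0.26, adjusted p = 0.23).

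Slc12a2 (chromosome 18, 57878678 to 57946821), the basolateral sodium-potassium-chloride cotransporter, had the highest level of the 10 genes in both groups. It was at 676, 609, 662 and 770.4 CPM in control and at 581, 547, 544 and 605 CPM after RANKL. The lowest control value lay just above the highest RANKL value, and the groups did not overlap at this scaling. With library totals alone they did, at 610.04 CPM in control replicate 2 and 616 CPM in RANKL replicate 4. The log2 fold change was -0.25 (95% interval -0.44 to -0.05, adjusted p = 0.055), just outside the threshold, and the exact permutation test on the TMM-scaled values gave p = 0.0286. It passed the threshold under limma-voom (-0.23, adjusted p = 0.048) and with log2 library size as covariate (-0.31, adjusted p = 0.040). With a library left out it passed in 2 of 8 fits, without control replicate 2 (-0.29) or control replicate 3 (-0.25). Without control replicate 4 the change was -0.19 (adjusted p = 0.17). It did not pass under the DESeq2 Wald test (adjusted p = 0.051) or in edgeR with library totals alone (adjusted p = 0.089).

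The level of Slc12a2 was set over that of Cftr within each library, as a ratio of transcripts and not of chloride entry to chloride exit. This ratio was 5.82, 5.42, 7.46 and 4.92 in control and 4.00, 3.99, 3.52 and 3.93 after RANKL. All RANKL libraries lay below all control libraries. The mean log2 ratio went from 2.54 ± 0.26 to 1.95 ± 0.09 (SD, n = 4 each), a difference of -0.60 (exact two-sided permutation p = 0.0286, 0.0429 adjusted over the 3 ratios).

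Kcnn4 (chromosome 7, 24370263 to 24386690), a potassium channel opened by calcium, was at 106, 104, 95.3 and 119 CPM in control and at 50.0, 67.5, 74.1 and 58.8 CPM after RANKL. The groups were well apart. Kcnn4 fell by 0.70 on the log2 scale (standard error 0.13, 95% interval -0.96 to -0.44, adjusted p = 8.2e-05, exact permutation p = 0.0286), to 0.616 of control, and passed with each library left out in turn (-0.80 to -0.64). Kcnq1 and Kcnn4 thus changed in opposite directions: the mean of Kcnn4 was above that of Kcnq1 in control (106 against 84.8 CPM) and below it after RANKL (62.6 against 142 CPM).

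**Figure D2:**
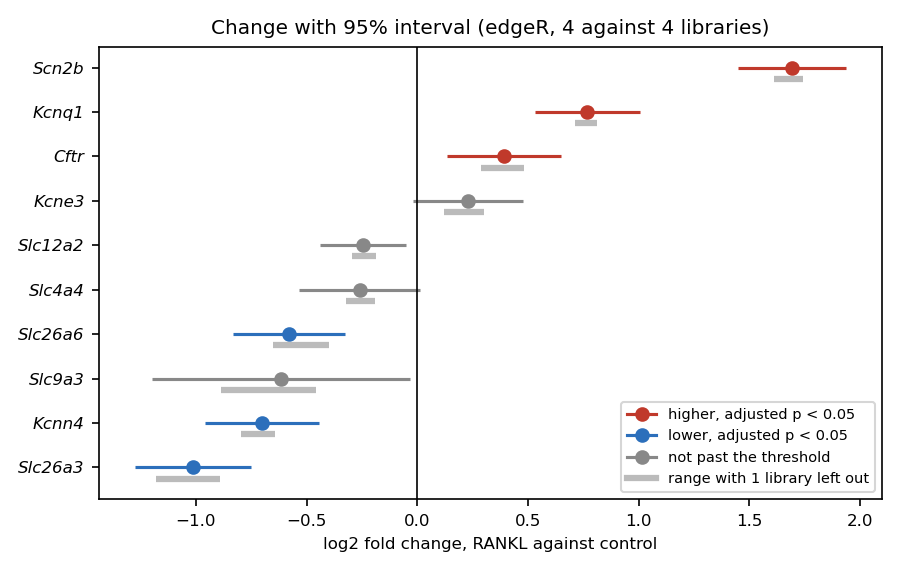
Log2 fold change of each gene, RANKL against control, with its 95% interval from edgeR (thin line) and, as a thick grey bar under it, the range with each of the 8 libraries left out in turn. Scn2b, Kcnq1 and Cftr (red) lie to the right of 0, Slc26a6, Kcnn4 and Slc26a3 (blue) to the left, and the 4 grey genes did not pass an adjusted p of 0.05.

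Among the genes of absorption and bicarbonate transport, Slc26a3 and Slc26a6 fell, and Slc9a3 and Slc4a4 did not pass the test. Slc26a3 (chromosome 12, 31390871 to 31473917), the apical chloride-bicarbonate exchanger that is defective in congenital chloride diarrhoea, was at 168, 162, 193 and 170.3 CPM in control and at 80.7, 113, 67.3 and 83.5 CPM after RANKL. The highest RANKL value was well below the lowest control value. Slc26a3 fell by 1.01 on the log2 scale (standard error 0.13, 95% interval -1.28 to -0.75, adjusted p = 3.1e-07, exact permutation p = 0.0286), to 0.495 of control, and the range with each library left out in turn was -1.18 to -0.89. Of the 9971 genes tested, 131 had a log2 fold change further below 0.

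Slc26a6 (chromosome 9, 108853283 to 108913049), an apical exchanger of chloride for bicarbonate, oxalate and other anions, was at 331, 317, 493 and 332 CPM in control and at 276, 280.1, 222 and 222 CPM after RANKL. Control replicate 3 was far above the other control libraries, and the groups did not overlap. Slc26a6 fell by 0.58 on the log2 scale (standard error 0.12, 95% interval -0.84 to -0.32, adjusted p = 7.0e-04, exact permutation p = 0.0286). Leaving out each library in turn gave -0.65 to -0.40, the weaker end without control replicate 3, and the gene passed in all 8 of these fits.

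Both members of the SLC26 family fell, and their ratio was examined within each library. Slc26a6 over Slc26a3 was 1.97, 1.95, 2.56 and 1.95 in control and 3.42, 2.48, 3.30 and 2.66 after RANKL. Control replicate 3 lay above RANKL replicate 2, so the groups overlapped. The mean log2 ratio was 1.06 ± 0.19 in control and 1.55 ± 0.23 after RANKL (SD, n = 4 each), a difference of 0.49 that did not pass (exact two-sided permutation p = 0.0571, 0.0571 adjusted over the 3 ratios).

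**Figure D3:**
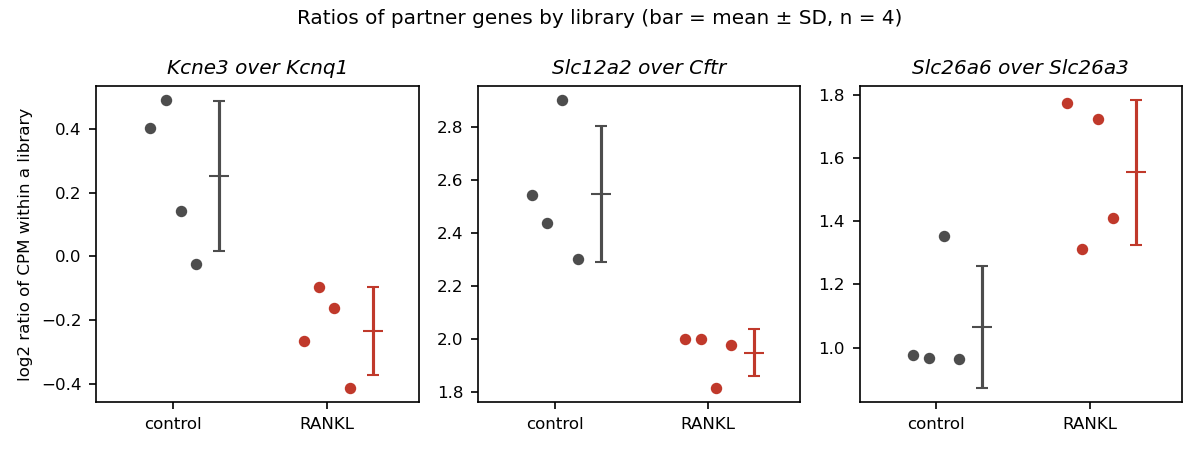
Log2 ratio of the CPM of partner genes within each library, with points for the 4 control (grey) and 4 RANKL (red) libraries and a bar for the mean and SD; the axes do not start at 0. The groups are apart for Kcne3 over Kcnq1 and Slc12a2 over Cftr, and overlap for Slc26a6 over Slc26a3, where control replicate 3 lies within the range of the RANKL libraries.

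Slc9a3 (chromosome 13, 74121457 to 74169442), the apical sodium-proton exchanger NHE3, had the lowest level of the 10 genes in both groups. It was at 8.28, 16.4, 14.4 and 15.5 CPM in control and at 11.3, 8.26, 7.30 and 8.24 CPM after RANKL. The first control library lay among the RANKL libraries. The log2 fold change was -0.62 with a wide 95% interval of -1.20 to -0.03 (adjusted p = 0.11, exact permutation p = 0.0571), from 192 control and 48 RANKL counts in all. It passed without control replicate 1 (-0.89, adjusted p = 0.014) and with log2 library size as covariate (-0.99, adjusted p = 0.039). The interval ran from 0.435 to 0.976 of control.

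Slc4a4 (chromosome 5, 88886818 to 89239653), the basolateral sodium-bicarbonate cotransporter, was at 59.3, 70.6, 59.8 and 63.6 CPM in control and at 64.6, 46.8, 53.7 and 50.5 CPM after RANKL. RANKL replicate 1 lay within the control range, and the other RANKL libraries lay below it. The log2 fold change was -0.26 (95% interval -0.54 to 0.01, adjusted p = 0.16), and it did not pass with any library left out (-0.32 to -0.19).

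Scn2b (chromosome 9, 45117782 to 45130070) changed more than any other of the 10 genes. Its 4 control libraries were at 35.6, 42.4, 43.1 and 39.6 CPM and its 4 RANKL libraries at 136, 125, 131 and 128 CPM. Its coefficient of variation after RANKL, 3.41%, was the lowest of the 10 genes, and the group ranges were far apart. The change was 3.23-fold (95% interval 2.73 to 3.83), and 176 of the 9971 tested genes had a larger positive log2 fold change. Scn2b counts summed to 631 over control and 750 over RANKL libraries although the latter were shallower in all. The study names Scn2b among markers of progenitor cells and reports that RANK stimulation of organoids induced it.

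The other sodium channel genes gave few counts. Of 16 other voltage-gated and epithelial sodium channel subunits listed, 1 passed the filter on low counts, the pore-forming subunit Scn3a, named here after its values were seen. Scn3a had 110 counts in control and 32 after RANKL, with a log2 fold change of -0.33 (adjusted p = 0.49). The epithelial sodium channel subunit Scnn1a, also named after its values were seen, had 24 counts in control and 39 after RANKL and was too low to be tested. Of the 16 genes 6 were at 0 in all libraries, and the 16 together had 153 counts in control and 76 after RANKL, fewer than Scn2b alone.

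The genes next to Scn2b lie on the same strand and did not rise with it. Jaml, a junctional adhesion molecule-like protein, ends 9248 bases before Scn2b and was at 915, 977, 986 and 968 CPM in control and 273, 289, 289 and 278 CPM after RANKL. Jaml fell by 1.76 on the log2 scale (standard error 0.09, adjusted p = 1.4e-15), without overlap of the groups. Scn4b, another sodium channel β subunit, starts 8325 bases after Scn2b and was at 0 throughout. No exon of another gene overlaps Scn2b on its strand in GENCODE M21.

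Over the 6 genes that passed, 12 nearest protein-coding neighbours were listed. Of these 6 were tested and, against a share of 25.9% among all genes tested, 3 passed. Beside Jaml these were Cbll1, next to Slc26a3, which rose by 0.51 on the log2 scale (standard error 0.16, adjusted p = 0.017), and Smg9, next to Kcnn4, which fell by 0.54 on that scale (standard error 0.15, adjusted p = 0.0091) although its groups overlapped. Cbll1 no longer passed without control replicate 2 or RANKL replicate 4, nor Smg9 without RANKL replicate 4. Dld on the other side of Slc26a3 was at 86.5 ± 12.4 CPM in control and 83.4 ± 6.80 CPM after RANKL (SD, n = 4 each). Cttnbp2 next to Cftr was at 17.9 ± 3.01 and 18.0 ± 3.51 CPM, and Cdkn1c next to Kcnq1 at 9.09 ± 1.13 and 8.24 ± 2.55 CPM. Asz1 and Lypd5 were at 0, and Celsr3, Tmem89 and Trpm5 were too low to be tested, at no more than 4.13 CPM in any library.

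The order of levels among the 10 genes changed between the groups. In control the mean levels ran from Slc12a2 (679 ± 67.3 CPM) through Slc26a6 (368 ± 83.6), Slc26a3 (173 ± 13.4), Cftr (118 ± 28.1), Kcnn4 (106 ± 9.64), Kcne3 (101 ± 13.3), Kcnq1 (84.8 ± 10.6), Slc4a4 (63.3 ± 5.20) and Scn2b (40.2 ± 3.38) to Slc9a3 (13.6 ± 3.66; SD, n = 4). The neighbours from Cftr to Kcnq1 overlapped in their ranges over libraries, and all other neighbours in the order were apart. After RANKL the order was Slc12a2 (569 ± 28.9 CPM), Slc26a6 (250.1 ± 32.4), Cftr (148 ± 8.36), Kcnq1 (142 ± 14.8), Scn2b (129.9 ± 4.43), Kcne3 (121 ± 12.9), Slc26a3 (86.1 ± 19.2), Kcnn4 (62.6 ± 10.4), Slc4a4 (53.9 ± 7.65) and Slc9a3 (8.77 ± 1.74). From Cftr down to Slc4a4 the range of each gene over libraries overlapped that of its neighbour. Within single RANKL libraries, Kcnq1 lay above Scn2b and Kcne3 above Slc26a3 in 4 of 4. The other neighbours in this stretch kept their order in 3 of 4. Scn2b and Slc26a3 changed places between the groups. Scn2b, at most 43.1 CPM in control, lay below Slc26a3 in every library of that group. After RANKL, at 125 CPM or more, it lay above Slc26a3 in every library.

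Beyond the 10 genes, 7 lists of other salt and fluid transport genes held 234 genes, of which 69 passed the filter on low counts. Of these 69, 27 passed the test (39.1%, against 25.9% of all genes tested), 14 higher and 13 lower. The median log2 fold change of the 69 was 0.05. The counts per list below stand beside the same share of all genes. In the list of chloride channels and CLCA proteins 18 of 29 were tested, 7 were higher and 3 lower, with a median of 0.19. Clca4b, of the secreted family that regulates calcium-activated chloride channels, rose from 42.1 ± 8.36 to 143 ± 16.5 CPM (log2 fold change 1.73, adjusted p = 2.3e-11). Its relative Clca3a2 rose from 13.4 ± 2.77 to 41.2 ± 6.07 CPM (1.66, adjusted p = 2.7e-08). These CLCA genes have near-identical copies that can share reads, so the split between them is uncertain. Ano10, of the anoctamin family, rose from 62.7 ± 16.8 to 147 ± 11.2 CPM (1.25, adjusted p = 6.2e-08).

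Among the regulators of transport both guanylin peptides rose. Guanylin (Guca2a) and uroguanylin (Guca2b) are peptides secreted into the lumen that raise cGMP in the epithelium, which opens CFTR and inhibits NHE3. Guca2a was at 163, 259, 284 and 241 CPM in control and at 877, 769, 732 and 802 CPM after RANKL, and rose by 1.75 on the log2 scale (standard error 0.12, adjusted p = 1.8e-12). Guca2b was at 161, 152, 173 and 206 CPM in control and at 307, 354, 343 and 371 CPM after RANKL, and rose by 1.03 on the log2 scale (standard error 0.10, adjusted p = 4.6e-09). Both ligands were higher in every RANKL library than in any control library. Wnk4, a kinase that acts on SLC12 cotransporters, fell from 21.5 ± 4.41 to 10.6 ± 2.06 CPM (-1.09, adjusted p = 4.9e-04). Of the 30 regulators listed 23 were tested, 6 were higher and 3 lower, with a median of 0.09.

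Of the other SLC4, SLC9, SLC12 and SLC26 transporters 12 of 37 were tested, with a median of 0.01. Of the 12, 3 passed (25%), near the 25.9% of all genes tested. Slc12a9 fell from 78.7 ± 5.84 to 56.0 ± 6.70 CPM (-0.55, adjusted p = 0.0014), and the sodium-bicarbonate cotransporter Slc4a7 from 275 ± 28.3 to 213 ± 21.5 CPM (-0.34, adjusted p = 0.015), which no longer passed once RANKL replicate 1 was left out (-0.30).

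Of 85 other potassium channel subunits 4 passed the filter and 28 were at 0 in all libraries. Kcnk1, a potassium leak channel, fell from 56.6 ± 14.8 to 27.9 ± 3.58 CPM (-0.94, adjusted p = 9.4e-05), and the median of the 4 was -0.25. Of 16 sodium pump subunits and FXYD proteins 4 were tested with a median of 0.05, and 1 was lower: Atp1b1, the β subunit of the sodium-potassium pump that drives all these fluxes, fell from 1536 ± 96.1 to 1206 ± 34.3 CPM (-0.35, adjusted p = 0.0042). Of 21 aquaporins and carbonic anhydrases 7 were tested, 0 were higher and 3 lower, with a median of -0.35. The water channel Aqp1 fell from 263 ± 19.9 to 149 ± 11.9 CPM (-0.83, adjusted p = 2.8e-07) and Aqp11 from 77.7 ± 8.83 to 55.7 ± 3.51 CPM (-0.49, adjusted p = 0.0051). Car9, a membrane carbonic anhydrase, was at 24.0 ± 5.09 and 17.6 ± 4.51 CPM with overlapping groups (-0.62, adjusted p = 0.021), and its call held in 4 of the 8 fits with a library left out.

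**Figure D4:**
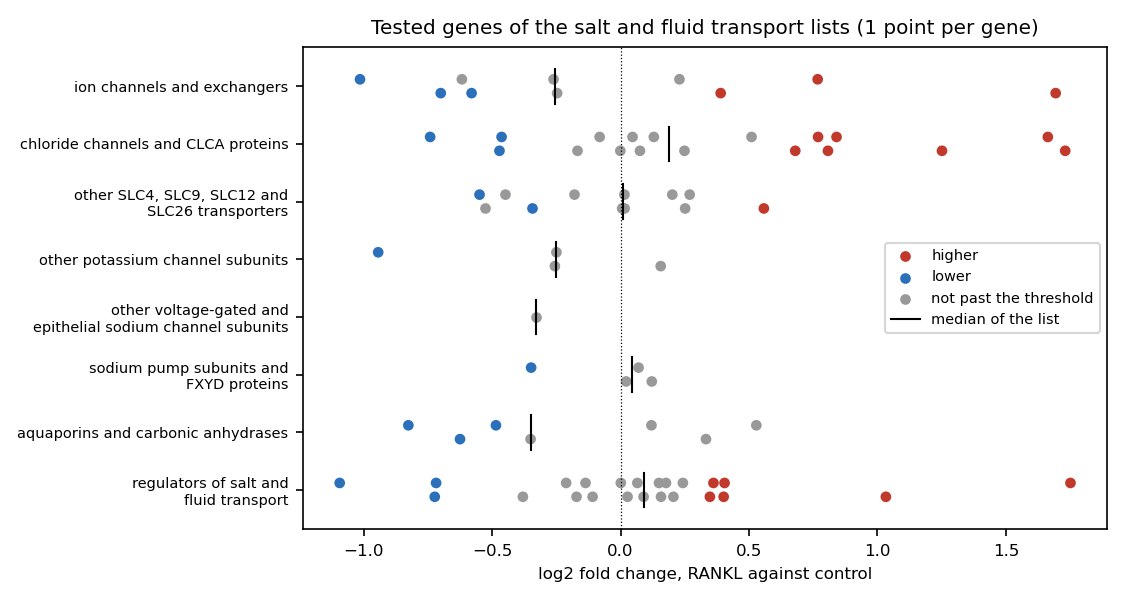
Log2 fold change of each tested gene, RANKL against control, for the 10 channel and exchanger genes (top row) and the 7 lists of other salt and fluid transport genes, with red for higher and blue for lower at an adjusted p of 0.05 and a black line at each list's median. The points furthest to the right are Guca2a (1.75), Clca4b (1.73), Scn2b (1.69) and Clca3a2 (1.66), and those furthest to the left are Wnk4 (-1.09) and Slc26a3 (-1.01).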

How the data were processed

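The deposited values are raw counts per gene. Per the study's methods, the authors trimmed single-end QuantSeq reads with BBDuk, removed ribosomal, mitochondrial and control sequence with bowtie2, aligned to GRCm38 with STAR and counted reads on the sense strand with featureCounts; molecular identifiers are not mentioned, so counting error may be understated. From these counts, edgeR 4.0.16 (R 4.3.3) was run on all 8 libraries with totals over all 54532 genes, TMM factors, low counts filtered by filterByExpr and the quasi-likelihood test, with Benjamini-Hochberg adjustment over 9971 genes and a threshold of 0.05. Standard errors are the log2 fold change over the square root of F. Single genes and the 3 ratios (no pseudocount) were compared by exact permutation over 70 assignments (scipy 1.17.1). Group and replicate came from the sample titles, and IDs were matched to GENCODE M21 for 54495 genes. The scripts were tested on simulated data. Named genes are the 10 channel and exchanger genes, up to 3 genes past the threshold with the largest absolute change per list (with a mean of 5 CPM or more), and the nearest protein-coding neighbours. Some genes that this rule or the lists would name are not reported here. These genes and lists were chosen with earlier results of these data known. Alternatives were DESeq2 1.42.0, limma-voom 3.58.1, other scalings, filters, covariates and thresholds, and libraries left out.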

Additional observations from a re-analysis of the deposited data

Results flagged for a closer look

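Of 66 groups of 4 libraries examined, 4 held a library whose gap to its nearest neighbour passed Dixon's 95% criterion, and chance alone would give about 1 in 20, or 3.3. Slc26a6 in control replicate 3 was at 493.2 CPM, with the next library at 332 CPM. The log2 ratio of Slc26a6 over Slc26a3 in the same library was 1.355 (next 0.98). Across genes, the counts of control replicate 3 also departed from those of control replicates 1 and 2. The chi-square per degree of freedom was 11.9 and 7.96 for these pairs, against 3.77 between replicates 1 and 2. Against the shallow control replicate 4 it was 2.40. The cause was not tested. Dld, the neighbour of Slc26a3, was at 104.9 CPM in control replicate 4 (next 82.6). The log2 ratio of Slc12a2 over Cftr in RANKL replicate 3 was 1.814 (next 1.98), below the other RANKL libraries and further from control.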

How the results depend on the processing

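Scn2b, Kcnq1, Slc26a3, Kcnn4 and Slc26a6 kept their direction and their call under every alternative run, and 0 of the values for the 10 genes, the named genes of the other lists and the 3 ratios changed sign. At an adjusted p of 0.01, 1636 genes passed (929 higher, 707 lower), and Cftr (0.39) did not. With log2 library size as covariate the log2 fold change was 0.26 for Cftr (call lost), -0.31 for Slc12a2 and -0.99 for Slc9a3 (calls gained). Slc12a2 also passed under limma-voom (-0.23). With a library left out the range was 0.29 to 0.48 for Cftr, -0.29 to -0.19 for Slc12a2 and -0.89 to -0.46 for Slc9a3. The difference in log2 ratio ranged from -0.58 to -0.41 for Kcne3 over Kcnq1 and from -0.68 to -0.48 for Slc12a2 over Cftr; 3 libraries against 4 cannot give a p below 0.0571, so these say nothing about stability. The cause of the changed calls was not tested. Deviations from the group mean correlated at -0.034 to 0.104 between same-numbered libraries and at -0.138 to 0.088 between the others. These ranges are alike and do not settle whether the numbers pair the libraries, which the labels do not say. A replicate block gave 2610 genes past the threshold and -0.25 for Slc12a2, which then passed, and the exact paired sign-flip permutation test left the ratios at -0.49 and -0.60 with p = 0.125, the smallest it allows. Without the shallowest library of each group, chosen after seeing the data, 6 of the 10 genes passed. Slc9a3 could not be tested with at least 10 counts in every library. Depth limits Slc9a3 most, with 7 counts in its lowest library.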
